A study of Saccharomyces cerevisiae with 12 samples.

Results

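Purine synthesis and adenine salvage were followed in mild heat-shocked yeast through 10 genes, namely 9 genes of the de novo pathway to AMP (*ADE1*, *ADE4*, *ADE5,7*, *ADE6*, *ADE8*, *ADE12*, *ADE13*, *ADE16* and *ADE17*) and *AAH1*, the adenine deaminase gene. Of these 10, 9 were matched to a probe by gene symbol, among 6019 features measured in all, of which 5376 have a gene name. The features without a name were not identified further, and they enter the shares given for all features. *ADE5,7* was not matched and is not analysed here. The genes were chosen with their ratios in view, and *AAH1* was included because its ratio is low, so the ratios of heat-shocked over control cells are a description of the 9 genes and carry no test.

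Purine nucleotides are built on phosphoribosyl pyrophosphate (PRPP) by a chain of enzymes that ends at IMP, from which one branch leads to AMP and the other to GMP. In yeast the genes of this chain are activated by the transcription factors Bas1p and Pho2p when adenine is scarce. Adenine can also be salvaged, either directly to AMP by Apt1p or through hypoxanthine, which Aah1p produces. The chain takes up carbon units from folate, so genes of glycine and folate metabolism are linked to it.

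*S. cerevisiae* JN54 is the wild-type parent of the *ssa1/2* mutant, a *MATa* strain that carries mutant alleles of *HIS3*, *LEU2*, *URA3*, *TRP1* and *LYS2* in both compared cultures, and no mutant *ADE* allele is given for it. Cells in logarithmic phase at 30°C in the rich medium YPD were moved to prewarmed YPD of 43°C, kept there during 30 or 60 min and labelled with Cy5, and control cells stayed at 30°C for the same time and were labelled with Cy3. There were 3 experiments at each time, hence 6 arrays, each scanned at high and low laser power with identical deposited values. The study calls the experiments independent but does not say whether each had cultures of its own, so p-values measure the spread between these arrays. In the main fit that spread is taken per gene over both times, with 4 residual degrees of freedom. It is drawn towards that of all features by a prior of 6.76 degrees of freedom. A call at 1 time can therefore change when an array of the other time is left out.
Values after ± are SDs over 3 experiments. Each value is the log ratio of heat-shocked over control cells, read here as log2. The base is not named in the sources and was taken as 2, the usual choice for such ratios, and were the logarithms natural, every fold would be larger. Arrays held between 6132 and 6162 values, their median log2 ratios lay between -0.01 and 0.03, and the scaled median absolute deviation was lowest in experiment 3 at each time (0.56 and 0.61, against up to 1.04). In experiment 3, 2480 features at 30 min and 1997 at 60 min shared their value with another feature, against 162 to 770 in the other arrays. The values of experiment 3 are thus more coarsely resolved. Of 8 heat and general stress genes, 7 had a mean ratio above 0 at each time, and *HSP42* had -0.72 and -0.13. A ratio compares labelled mRNA pools, so less mRNA per cell and fewer cells contributing it cannot be told apart, and the strain could not be checked by marker levels. The methods describe 1 dye orientation only, and any preference of a probe for Cy5 or Cy3 would enter all 6 of its ratios and cannot be told apart from the response to heat.

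The ratios of the purine genes lay on both sides of 0. *ADE17*, *ADE4* and *ADE1* had log2 ratios above 0 in all 6 arrays, and *ADE6*, *ADE13* and *ADE16* had log2 ratios below 0 in all 6. *AAH1* was below 0 in 5 of 6 arrays, and *ADE8* and *ADE12* had both signs. All 3 experiments had 1 sign for 8 of the 9 genes at 30 min and 6 of the 9 at 60 min, beside 69% and 55.9% of all features. The mean log2 ratios of the 9 genes ran from -1.40 to 1.87 at 30 min and from -1.16 to 2.14 at 60 min. Their median was -0.21 at 30 min and -0.29 at 60 min, beside -0.01 and 0.01 over all features. The median of the SD over experiments was 0.42 and 0.38 for the 9 genes, and 0.27 and 0.45 for all features.

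**Figure D1:**
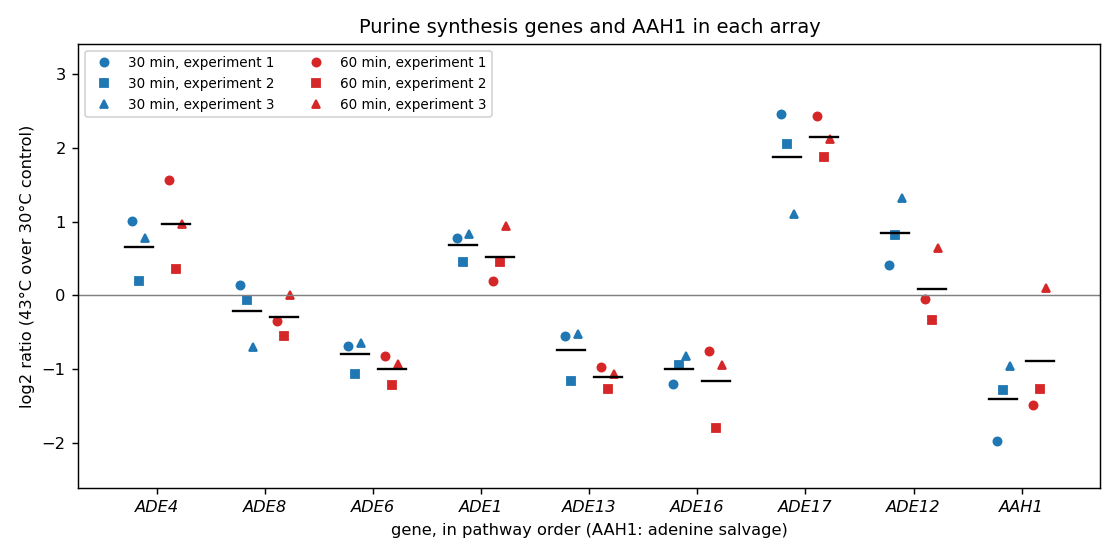
Log2 ratio of heat-shocked (43°C) over control (30°C) cells for each gene, in the order of the pathway, with 30 min in blue, 60 min in red, 1 symbol for each experiment and a black bar at the mean of 3. *ADE17*, with means of 1.87 and 2.14, stands above all other genes, and *AAH1* at 60 min has 1 array (0.10) apart from the other two.

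*ADE4* encodes the PRPP amidotransferase, which carries out the first committed step. Its log2 ratios were 1.01, 0.20 and 0.78 in experiments 1, 2 and 3 of 30 min, and 1.56, 0.36 and 0.97 in those of 60 min. Experiment 2 was the lowest at each time, and all values lay above 0. The means were 0.66 ± 0.42 (SD, n = 3) and 0.96 ± 0.60 (SD, n = 3), or 1.58-fold and 1.95-fold, which placed *ADE4* above 86.3% and 93.1% of all features. The spots that share its print block, as read from the probe numbers, had median log2 ratios of 0.92, 0.34 and 0.25 at 60 min, and with each block centred on 0 the mean of *ADE4* at 60 min was 0.46 and was not called. The part of the block in the ratio was not tested further.

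*ADE8* encodes the GAR transformylase, which adds the first folate-borne carbon unit. In the same order, *ADE8* had log2 ratios of 0.14, -0.06 and -0.70 at 30 min, and -0.34, -0.54 and 0.00 at 60 min. At each time 1 of the 3 values lay above 0, and the means were -0.21 ± 0.44 (SD, n = 3) and -0.29 ± 0.28 (SD, n = 3). Without experiment 3 of 30 min, the mean at 30 min was 0.04, so its sign rested on that array.

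*ADE6* encodes the FGAM synthetase, the next enzyme of the chain. The arrays gave *ADE6* log2 ratios of -0.68, -1.06 and -0.64 at 30 min, and -0.83, -1.22 and -0.93 at 60 min. All 6 values lay below 0 within a narrow range, with experiment 2 the lowest at each time. The means were -0.79 ± 0.23 (SD, n = 3) and -0.99 ± 0.20 (SD, n = 3), a 1.73-fold and a 1.98-fold lower level than in control cells.

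*ADE1* encodes the SAICAR synthetase. For *ADE1* the log2 ratios were 0.77, 0.45 and 0.84 at 30 min, and 0.19, 0.45 and 0.94 at 60 min. All values were above 0, and those of 60 min were more widely spread. The means were 0.69 ± 0.21 (SD, n = 3) and 0.53 ± 0.38 (SD, n = 3), or 1.61-fold and 1.44-fold.

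*ADE13* encodes the adenylosuccinate lyase, which acts both in the chain to IMP and in the last step to AMP. The 6 arrays gave -0.54, -1.16 and -0.52 at 30 min, and -0.97, -1.27 and -1.06 at 60 min. All were below 0, and experiment 2 was again the lowest at each time. The means were -0.74 ± 0.36 (SD, n = 3) and -1.10 ± 0.16 (SD, n = 3), the latter 2.14-fold lower than in control cells.

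*ADE16* and *ADE17* encode isozymes that add the second folate-borne carbon unit and close the ring to IMP. The log2 ratios of *ADE16* were -1.20, -0.94 and -0.82 at 30 min, and -0.74, -1.79 and -0.94 at 60 min. Those of *ADE17* were 2.45, 2.05 and 1.10 at 30 min, and 2.43, 1.87 and 2.12 at 60 min. The 2 genes thus lay on opposite sides of 0 in every array.
The mean log2 ratio of *ADE16* was -0.99 ± 0.19 (SD, n = 3) and -1.16 ± 0.55 (SD, n = 3), and that of *ADE17* 1.87 ± 0.70 (SD, n = 3) and 2.14 ± 0.28 (SD, n = 3), or 3.65-fold and 4.41-fold. *ADE17* was above 99.5% of all features at each time, and *ADE16* above 9.77% and 8.36%. Within an array, the log2 ratio of *ADE17* exceeded that of *ADE16* by 1.92 to 3.66. The smallest difference was that of experiment 3 of 30 min, where *ADE17* had its lowest value.
Duplicate genes can share labelled cDNA on a cDNA array. How far the probes of *ADE16* and *ADE17* do so was not tested.

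*ADE12* encodes the adenylosuccinate synthetase, the first step from IMP to AMP. At the level of single arrays, its log2 ratios were 0.41, 0.82 and 1.32 at 30 min, and -0.05, -0.33 and 0.64 at 60 min. All 3 values of 30 min lay above 0, those of 60 min had both signs, and the times overlapped through experiment 3 of 60 min and experiment 1 of 30 min. The means were 0.85 ± 0.45 (SD, n = 3) and 0.09 ± 0.50 (SD, n = 3). Without experiment 3 of 60 min, the mean at 60 min was -0.19.

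*AAH1* encodes the adenine deaminase, which turns adenine into hypoxanthine for use as IMP, and which yeast cells lose on entry into quiescence. Its log2 ratios were -1.96, -1.27 and -0.96 at 30 min, and -1.49, -1.26 and 0.10 at 60 min. Only experiment 3 of 60 min lay above 0. The means were -1.40 ± 0.51 (SD, n = 3), or 2.63-fold lower than in control cells, and -0.88 ± 0.86 (SD, n = 3). The mean at 60 min was -1.37 without experiment 3 and -0.58 without experiment 1 of that time, so 1 array decided its size. *AAH1* lay above 5.08% of all features at 30 min, the lowest of the 9 genes, and above 13.2% of them at 60 min.

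By the rule of the study, over 2-fold in at least 2 of the 3 experiments, *ADE17* was up and *AAH1* down at 30 min, and *ADE17* was up and *ADE13* and *AAH1* down at 60 min. Of all features, 4.42% were up and 10.2% down by this rule at 30 min, and 6.89% and 10.5% at 60 min. Where 1 array was left out, both remaining arrays had to pass. *AAH1* at 30 min then failed it without experiment 1 or 2, so 0 genes were down. At 60 min 0 were down without experiment 2 and 1 without experiment 1 or 3. In the limma fit across all features, at an adjusted p under 0.05, 3 of the 9 genes were higher (*ADE1*, *ADE12* and *ADE17*) and 4 lower (*ADE6*, *ADE13*, *ADE16* and *AAH1*) at 30 min. At 60 min 2 were higher (*ADE4* and *ADE17*) and 3 lower (*ADE6*, *ADE13* and *ADE16*). The same fit called 10.7% of all features higher and 15.9% lower at 30 min, and 15.6% and 18.2% at 60 min. These calls use the ratios that the genes were chosen on and are given as counts only. Without experiment 1 of 30 min, 1 gene was higher and 0 lower at that time, without experiment 2, 1 and 0, and without experiment 3, 1 and 2. At 60 min 1 was higher without experiment 3.

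The same genes were then compared between 60 and 30 min, a contrast that the rule for choosing them did not name. It uses the same log2 ratios that were in view when the genes were chosen. Its p-values and intervals for these genes are therefore given as a description. None of the 9 genes differed between the times by limma (adjusted p of 0.583 to 0.943), and 0% of all features did. At an unadjusted p under 0.05, 0 of the 9 genes and 8.57% of all features differed. The values of the 2 times overlapped for all 9 genes, while 16.2% of the features measured in all arrays had times that did not overlap. The difference was widest for *ADE12*, whose log2 ratio was lower by 0.76 at 60 min (95% interval of 60 minus 30 min from -1.55 to 0.03, adjusted p = 0.583). That of *AAH1* was 0.51 (95% interval from -0.46 to 1.49, adjusted p = 0.741), and that of *ADE17* 0.27 (95% interval from -0.56 to 1.10, adjusted p = 0.854). For *ADE13* it was -0.36 (95% interval from -1.02 to 0.31, adjusted p = 0.739), and for *ADE4* 0.30 (95% interval from -0.52 to 1.12, adjusted p = 0.836). With 3 arrays a time, these intervals leave room for changes of over 2-fold for *ADE12*, *ADE13*, *AAH1*, *ADE17* and *ADE4*.

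**Figure D2:**
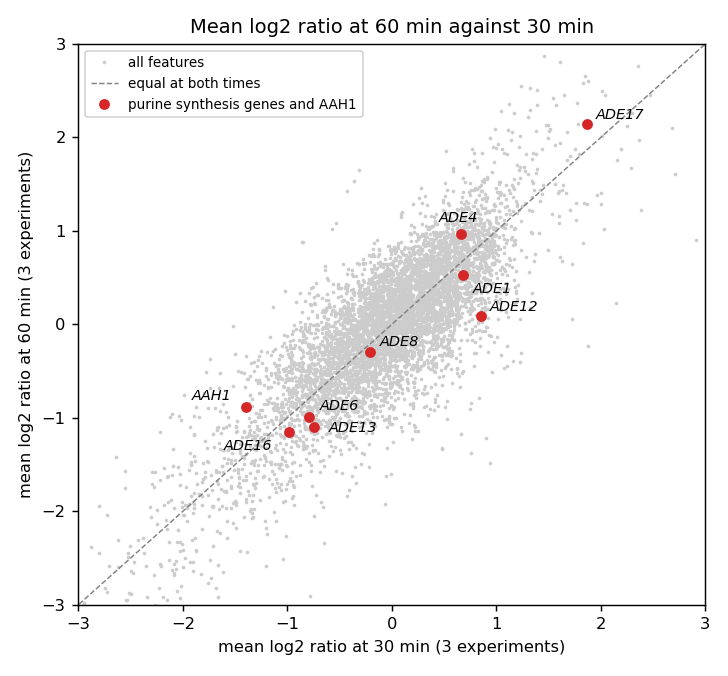
Mean log2 ratio over 3 experiments at 60 min (vertical axis) against 30 min (horizontal axis), with every feature in grey, the 9 genes in red and a dashed line of equal values. *ADE12* (0.85, then 0.09) and *AAH1* (-1.40, then -0.88) lie farthest from the line among the 9 genes, and *ADE17* (1.87, then 2.14) lies far above the bulk of the features at both times.

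The genes that flank the purine genes on the chromosome were taken from the order of protein-coding genes in the RefSeq R64 assembly. *ADE16* and *ADE17* each lie beside 1 of the 2 genes of ribosomal protein L15. *RPL15A*, beside *ADE16*, had mean log2 ratios of -2.14 ± 0.24 (SD, n = 3) and -2.52 ± 0.22 (SD, n = 3). *RPL15B*, beside *ADE17*, had -1.13 ± 0.32 (SD, n = 3) and -2.01 ± 1.03 (SD, n = 3), so *ADE16* had the sign of its neighbour and *ADE17* did not. The other neighbour of *ADE16*, *AAT2*, which encodes an aspartate aminotransferase, had -1.45 and -1.38, and that of *ADE17*, *ASI1*, had -0.68 and -0.48. *AAH1* lies between *MEP2*, an ammonium permease gene, with 0.30 and 0.52, and *YNL140C* with 0.14 and -0.34. *ADE8* had the sign of its measured neighbour *TRS120* (-0.45 and -0.35). *ADE13* had the sign opposite to *YLR358C* (0.25 and 0.44) and *VPS38* (0.26 and 0.64), and *ADE12* to *POP1* (-0.02 and -0.49) and *ALG9* (-0.77 and -0.94). For *ADE1*, *ADE4* and *ADE6*, the means of the neighbours had both signs. Whether neighbours share a direction was not tested. *RPL15A* and *RPL15B* are near-identical copies, whose probes may share labelled cDNA.

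Some genes had a pattern over the 6 arrays close to that of *AAH1*. By Euclidean distance of the log2 ratios, the nearest named genes were *CLN1*, a G1 cyclin gene (distance 0.598), *SHR3*, which serves the exit of amino acid permeases from the ER (0.727), the spermidine synthase gene *SPE3* (0.733), and the vacuolar ATPase genes *VMA3* and *VMA16* (0.806 and 0.831). The nearest to the median of the 8 *ADE* genes were *CFT2*, *CUL3*, *XPT1*, *SIR2* and *YBL036C*, at distances of 0.302 to 0.391. Since that median lies near 0, these are genes with small ratios.

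The 2 other genes of the AMP pathway, *ADE2* and *ADE3*, were not among the 10. *ADE2*, the AIR carboxylase gene, which acts between *ADE5,7* and *ADE1*, had log2 ratios of 1.10, 0.69 and 1.08 at 30 min and 0.90, 0.26 and 0.77 at 60 min. It was above 0 in all 6 arrays, like *ADE1* and *ADE4*. By limma it rose at both times, with means of 0.95 ± 0.23 (adjusted p = 0.00895) at 30 min and 0.64 ± 0.34 (adjusted p = 0.0401) at 60 min. The first call did not hold without experiment 1 of 30 min (adjusted p = 0.0862) or experiment 3 (adjusted p = 0.0611). The second did not hold under 9 settings, where the adjusted p ranged from 0.0506 to 0.134. Those settings left out experiment 1 or 3 of 60 min or any experiment of 30 min, weighted, scaled or block-centred the arrays, or fitted 60 min alone.
*ADE3*, the cytosolic C1-tetrahydrofolate synthase gene, which makes the folate that the chain consumes, had log2 ratios of -1.0, -0.55 and -0.35 at 30 min and -0.34, -0.99 and -0.76 at 60 min. All 6 lay below 0. Its mean was -0.63 ± 0.33 (adjusted p = 0.0569) at 30 min, which passed the test under 5 settings (adjusted p of 0.00749 to 0.0408), and it fell by 0.69 ± 0.33 (adjusted p = 0.0343) at 60 min. The call at 60 min did not hold when experiment 2 or 3 of either time was dropped or 60 min was fitted alone (adjusted p of 0.0508 to 0.139).

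Of the 5 genes of regulators, 0 rose by limma, 0 fell at 30 min and 1 fell at 60 min. Among all features 10.7% rose and 15.9% fell at 30 min, and 15.6% and 18.2% at 60 min, so nothing is read from counts of 5 genes. *BAS1*, the activator of the *ADE* genes, had mean log2 ratios of -0.01 ± 0.11 (adjusted p = 0.982) at 30 min and 0.05 ± 0.22 (adjusted p = 0.856) at 60 min. *PHO2*, its partner, had 0.24 ± 0.21 (adjusted p = 0.384) at 30 min and 0.44 ± 0.16 (adjusted p = 0.112) at 60 min. *GCN4*, the activator of amino acid synthesis, which also acts on several *ADE* genes, had -0.77 ± 0.55 (adjusted p = 0.0506) at 30 min, which passed the test under 9 settings. At 60 min *GCN4* fell by 1.02 ± 0.46 (adjusted p = 0.0133), a call that did not hold with array weights (adjusted p = 0.0641) or without experiment 2 of that time (0.0659). *SAF1*, whose F-box protein marks Aah1p for degradation, had 0.60 ± 0.51 (adjusted p = 0.0848) at 30 min and 0.43 ± 0.28 (adjusted p = 0.187) at 60 min, with all 6 values above 0, and was called at 30 min under 4 settings (adjusted p = 0.0120 to 0.0494).

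Glycine and folate genes also lay on both sides of 0. Of 16 such genes measured, 5 rose and 4 fell by limma at 30 min, and 5 rose and 3 fell at 60 min, with a median log2 ratio of -0.06 and -0.05. Over all features, 10.7% rose and 15.9% fell at 30 min, and 15.6% and 18.2% at 60 min. The genes that rose at both times were *GCV1*, *GCV2* and *GCV3*, subunits of the glycine cleavage complex, *SHM2*, the cytosolic serine hydroxymethyltransferase, and *MTD1*, a cytosolic methylenetetrahydrofolate dehydrogenase. *GCV3* and *MTD1*, and *SHM1* and *MIS1* below, were named after their values were seen. *MTD1* had log2 ratios of 2.13, 0.31 and 1.69 at 30 min and 2.55, 0.38 and 1.94 at 60 min, experiment 2 being the lowest at each time. The limma calls of *MTD1* (adjusted p = 0.0312 and 0.0125) were not refitted with arrays left out.
*GCV1* had log2 ratios of 2.37, 1.63 and 1.48 at 30 min and 3.92, 1.96 and 1.88 at 60 min, experiment 1 being the highest at each time. It rose at both times, with means of 1.83 ± 0.48 (adjusted p = 0.00494) at 30 min and 2.59 ± 1.16 (adjusted p = 0.000507) at 60 min. Its call at 30 min did not hold when experiment 1 of that time was dropped (adjusted p = 0.0558).
*SHM2* rose at both times, with means of 1.68 ± 1.13 (adjusted p = 0.0351) at 30 min and 2.06 ± 1.57 (adjusted p = 0.0120) at 60 min, and its calls were lost after print-block centring (adjusted p = 0.0714 and 0.0849). The one at 30 min also needed experiment 1 (adjusted p = 0.268 without it) and experiment 2 (0.138), and the one at 60 min needed experiment 1 of that time (0.0523). *GCV2* rose at both times, with means of 2.00 ± 1.14 (adjusted p = 0.00501) at 30 min and 1.28 ± 0.84 (adjusted p = 0.0311) at 60 min. The *GCV2* call at 30 min did not pass when experiment 1 (adjusted p = 0.0570) or experiment 2 (0.0616) was dropped, and that at 60 min when experiment 2 (0.178) or 3 (0.113) was dropped or print blocks were centred (0.212). *LPD1*, the subunit that this complex shares with other dehydrogenases, fell at both times, with means of -1.0 ± 0.38 (adjusted p = 0.00737) at 30 min and -1.71 ± 0.21 (adjusted p = 0.000280) at 60 min, a call that at 30 min needed experiment 1 (adjusted p = 0.0743 without it) and experiment 2 (0.0992). Of the mitochondrial enzymes, *SHM1* had mean log2 ratios of -1.18 and -0.67 and *MIS1*, a mitochondrial counterpart of *ADE3*, of -1.26 and -0.73.

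**Figure D3:**
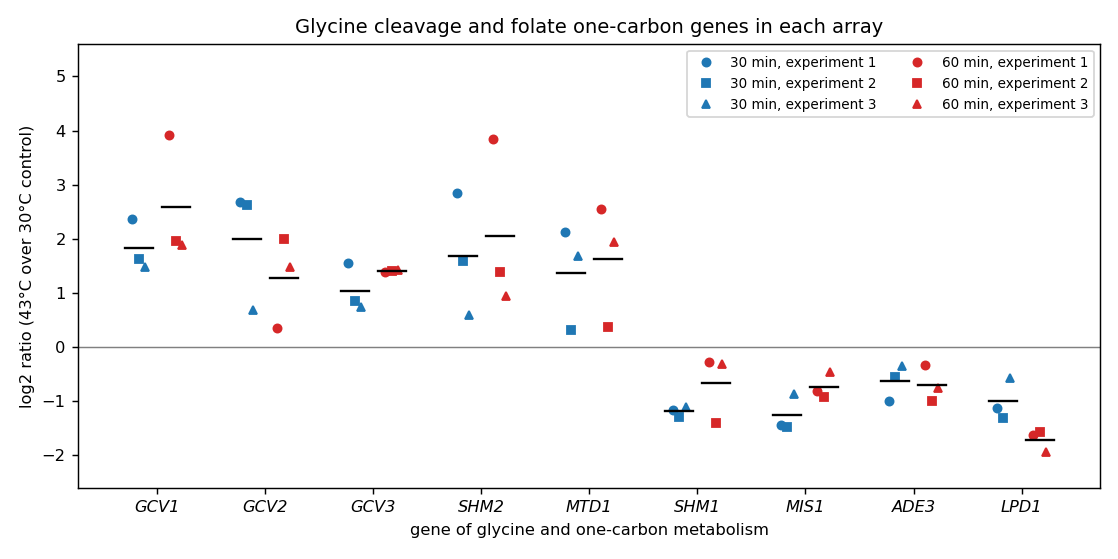
Log2 ratio of heat-shocked (43°C) over control (30°C) cells for genes of glycine and one-carbon metabolism, with 30 min in blue, 60 min in red, 1 symbol for each experiment and a black bar at the mean of 3. *GCV1*, *GCV2*, *GCV3*, *SHM2* and *MTD1* lie above 0 in all 6 arrays, and *SHM1*, *MIS1*, *ADE3* and *LPD1* below 0 in all 6.

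The other routes to and from purine nucleotides are given by their counts, to be read beside the same shares of all features (10.7% higher and 15.9% lower at 30 min, 15.6% and 18.2% at 60 min). Of the 4 genes of the GMP branch, 2 fell at each time. The 2 were *IMD2* and *IMD3*, which encode IMP dehydrogenase isoforms. *IMD2* had -1.66 ± 0.34 (adjusted p = 0.000797) at 30 min and -1.86 ± 0.48 (adjusted p = 0.000294) at 60 min. *IMD3* had -1.88 ± 0.28 (adjusted p = 0.000236) at 30 min and -1.46 ± 0.28 (adjusted p = 0.000612) at 60 min. The *IMD* genes are close copies, so their probes may share labelled cDNA. *GUA1*, the GMP synthase gene, had -1.59, -1.61 and -0.86 at 30 min, with a mean of -1.35 ± 0.43 (adjusted p = 0.0981). At 60 min *GUA1* had 1.89, -2.19 and -0.93, values that disagree in sign. The main fit takes 1 spread per gene over both times, so the values of 60 min enter the p-value of 30 min. By the fold rule of the study, 3 of the 4 genes were down at 30 min and 2 at 60 min. *IMD4*, named after its values were seen, had -0.18, -0.70 and 0.03 at 30 min, and -2.97, 0.12 and -0.08 at 60 min. Its mean at 60 min (-0.98) thus rested on 1 array.
Of 15 genes of purine salvage and interconversion, 0 rose and 5 fell at 30 min, and 1 rose and 5 fell at 60 min. The gene that rose was *APT2*, the paralogue of *APT1*, with 1.11 ± 0.63 (adjusted p = 0.00738) at 60 min. The call of *APT2* was not refitted under other settings. Salvage of adenine straight to AMP is carried out by Apt1p, and *APT1* fell at both times, with means of -2.03 ± 0.50 (adjusted p = 0.000733) at 30 min and -2.42 ± 0.71 (adjusted p = 0.000191) at 60 min. The adenosine kinase gene *ADO1* fell at both times, with means of -2.24 ± 0.26 (adjusted p = 7.54e-05) at 30 min and -2.14 ± 0.09 (adjusted p = 5.03e-05) at 60 min. The log2 ratio of each lay below that of *AAH1* in all 6 arrays. *HPT1*, which uses the hypoxanthine made by Aah1p, had -0.10 ± 0.47 (adjusted p = 0.784) at 30 min and -0.36 ± 0.49 (adjusted p = 0.297) at 60 min.
PRPP, the substrate of Ade4p, is made by the products of 5 *PRS* genes, of which 1 rose and 3 fell at 30 min and 0 rose and 2 fell at 60 min. *PRS2* was the gene that rose (0.86 ± 0.25, adjusted p = 0.0355), and its call failed without any 1 of the experiments of 30 min (adjusted p of 0.0764 to 0.216). *PRS1* fell at both times, with means of -1.40 ± 0.20 (adjusted p = 0.00246) at 30 min and -1.39 ± 0.59 (adjusted p = 0.00191) at 60 min. Among 3 transport genes, *FUN26*, a nucleoside transporter gene, fell at both times, with means of -1.57 ± 0.41 (adjusted p = 0.000623) at 30 min and -1.48 ± 0.16 (adjusted p = 0.000656) at 60 min, and the purine permease gene *FCY2* passed the test at 60 min only (-0.84 ± 0.74, adjusted p = 0.0334), a call that failed under 5 settings, among them when experiment 1 of that time was dropped (adjusted p = 0.169).

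**Figure D4:**
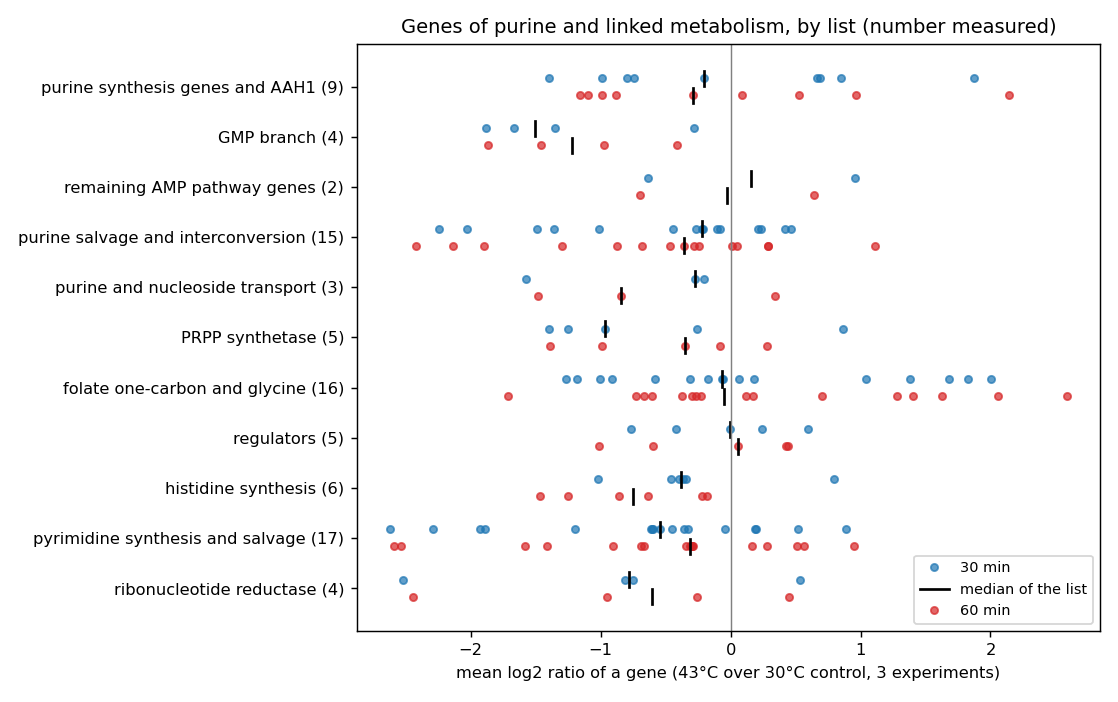
Mean log2 ratio of each gene (horizontal axis, 3 experiments) by list, with 30 min in blue, 60 min in red, a black bar at the median of the list and the number of genes measured in brackets. The purine synthesis genes and *AAH1* spread on both sides of 0, as do the glycine and folate genes. The means of the 4 genes of the GMP branch all lie below 0 at both times. Single arrays of *IMD4* at both times and of *GUA1* at 60 min had both signs.

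Histidine synthesis, which also starts from PRPP and returns an intermediate to the chain, had 1 gene up and 1 down of 6 at 30 min, and 0 up and 4 down at 60 min. *HIS1* fell by 1.25 ± 0.42 (adjusted p = 0.00214) at 60 min. Of 17 genes of pyrimidine synthesis and salvage, 1 rose and 5 fell at 30 min, and 2 rose and 7 fell at 60 min. *URA1*, the dihydroorotate dehydrogenase gene, had the lowest means of this list (-2.62 ± 0.49, adjusted p = 0.000204, and -2.59 ± 0.73, adjusted p = 0.000135). Of the 4 genes of ribonucleotide reductase, 3 fell at 30 min and 2 at 60 min, among them *RNR1* (-2.52 ± 0.71, adjusted p = 0.000177, and -2.44 ± 0.26, adjusted p = 0.000129). Over all lists together, 9 of 77 genes rose and 24 fell at 30 min, and 9 rose and 29 fell at 60 min, with medians of -0.36 and -0.34. The shares called over all features are those given above. At 30 min, 0 rose without experiment 1 and 4 without experiment 2 or experiment 3. At 30 min, 15 fell without experiment 2 of that time, and at 60 min 19 fell without experiment 2 of that time. After print-block centring, 5 rose at 60 min.

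Besides *ADE17* and *ADE16*, 8 pairs of related enzymes were set side by side. The 9 pairs and the order within each were chosen after the values were seen, so the signs of the differences support nothing. The log2 ratio was higher in all 6 arrays for *APT2* over *APT1* (by 2.00 to 4.86), *SHM2* over *SHM1* (by 1.26 to 4.13), *URA10* over *URA5* (by 0.86 to 3.56), *RNR3* over *RNR1* (by 2.02 to 3.85), *ADK2* over *ADK1* (by 0.80 to 1.42) and *URA8* over *URA7* (by 0.14 to 2.71). For *ADE3* against *MIS1* and *MET13* against *MET12* the sign differed between arrays. Means of opposite sign were seen in 7 of the 9 pairs at 30 min and 6 at 60 min, *ADE17* and *ADE16* among them at both times. These counts use the sign alone, and some means lay near 0. At 30 min *MET13* had -0.06 and *MET12* 0.06 (limma adjusted p = 0.879 and 0.833), and *URA8* had 0.19 (adjusted p = 0.603). The share of opposite signs among other pairs of genes was not computed. *ADK2* and *ADK1* had means of 1 sign at both times, as had *ADE3* and *MIS1*, and *URA8* and *URA7* at 60 min.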

How the data were processed

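Wild-type cells kept at 43°C during 30 or 60 min were compared with 30°C controls on 2-colour cDNA microarrays (6 arrays). The authors quantified spots with GenePix, computed Cy5/Cy3 and normalized it on negative control spots with Chip Cleanser. The deposited values, 12 columns of log ratios (1 for each scan), were read as log2. The 2 scans of an array differed in 0 values and were counted once. Of 6912 probes, 750 had no value. Probes with identical values in every array (203 in 78 groups) were merged, and distinct probes of 1 gene averaged.

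Limma 3.58.1 in R 4.3.3 fitted 1 mean per time against 0, and 60 against 30 min, with Benjamini-Hochberg adjustment over 6019 features at 0.05. The fit was tested on simulated ratios, with known changes given to some features at 30 min, and no value of that test is used. Members, lists and tests were chosen with earlier results of these data known. Named genes were the 10 members, *ADE2*, *ADE3*, *BAS1*, *PHO2*, *GCN4*, *SAF1*, up to 4 called genes of each list with 1 sign in all 3 arrays, and the 5 features nearest to *AAH1* and to the *ADE* median. Outside this rule, *APT2*, *GUA1*, *HPT1*, *GCV3*, *MTD1*, *SHM1*, *MIS1* and *IMD4* were named too, and their tests were not refitted. *FCY22*, *HIS3*, *URA2* and *URA3* were not matched. Alternatives were other centring, scaling, scans, filters, weights, blocks and fold rules, and each array left out. No spot intensities were used, so ratios near background could not be told from well-measured ones. The number of arrays limits the precision. The genome build behind the probes was not given in the sources used here, and neither positions nor sequences are printed.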

Additional observations from a re-analysis of the deposited data

How the results depend on the processing

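Of 216 recomputed means of the 9 purine genes, 2 changed sign, *ADE8* at 30 min and *ADE12* at 60 min, each without experiment 3 of that time. Over the tests of the named list genes, 970 of 1054 refits kept the call, 62 lost it, 22 gained it and 0 reversed. Scaling of the arrays to 1 spread gave 2 purine genes over 2-fold down at 30 min, 1 down and 2 up at 60 min, and 1025 features that rose at 30 min. With all 3 experiments over 2-fold, 0 purine genes were down at either time. Read as natural logarithms, a choice added after the data were seen, 2 were down and 4 up at 30 min and 4 down and 2 up at 60 min. Print-block centring left 1 purine gene and 5 list genes that rose at 60 min. With array weights 1439 features rose and 1620 fell at 30 min and 619 rose at 60 min, and 14 list genes rose and 38 fell at 30 min. With each time fitted alone, 1278 features rose and 1443 fell at 30 min and 515 rose at 60 min. The cause was not tested for any of these.

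With 1 array left out, purine genes over 2-fold down numbered 0 to 1 at 30 min and 0 to 2 at 60 min, those that rose by limma 1 to 4 and 1 to 2, and those that fell 0 to 4 at 30 min. List genes that rose numbered 0 to 10 at 30 min, and those that fell 15 to 32 at 30 min and 19 to 26 at 60 min. Over all features, 132 to 1013 rose and 417 to 1244 fell at 30 min, and 0 to 2 differed between the times. Experiment numbers are shared between the times. Deviations of same-numbered arrays correlated by -0.04, 0.13 and 0.36 for experiments 1, 2 and 3. Those of differently numbered arrays of the 2 times correlated by -0.29 to 0.19. Deviations from a mean of 3 arrays are not independent, so these values cannot decide whether a shared number is a pairing. The main fit used no pairing. With the number as a replicate block, 1 feature and 0 purine genes differed between 60 and 30 min. Values rest on 3 arrays a time, and no signal over background was used.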
